A study of Homo sapiens with 12 samples.

Results

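Golgi glycosyltransferase genes were taken as the rows of the expression table whose symbol belonged to the GALNT, GCNT, B3GNT, B3GALT, B4GALT, MGAT, ST3GAL, ST6GAL, ST6GALNAC, ST8SIA or FUT families, together with A4GALT and A4GNT. The rule for the members used their symbols and no measured value. They were 91 of 34688 rows, and all 91 were among the 34595 rows that held a value. Expression had been measured on Illumina HT-12 v3 BeadChips in CD133+ and CD133- cells of 3 established gastric cancer lines, KATO-III, SNU-216 and SNU-601, and the study asked which genes mark the CD133+ cells. Each of the 6 sorted populations was hybridized on 2 arrays, which gave 12 arrays in all. The lines were cultured alike in serum-containing medium, and no line carried a treatment or an engineered allele. Cells had been stained with an antibody against the AC133 epitope of CD133, a membrane glycoprotein encoded by PROM1, and only the brightest and the dimmest cells were collected. The series text calls the second line SNU201, while the array labels and the methods write SNU-216 or SNU216; the name in the labels is used. The labels number the 2 arrays of a population as replicates and do not say whether they came from separate sorts. Every p-value below therefore measures at most the spread between these arrays, which may be technical. Each line is a single line, and the tests between lines compare these 3 lines and no wider class.

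Glycosyltransferases of the Golgi build the sugar chains of mucins, membrane proteins and glycolipids, each enzyme adding 1 sugar in 1 kind of linkage. In mucin-type O-glycosylation, GALNT enzymes place the first GalNAc on serine or threonine, and core enzymes then extend or branch it. N-glycans are branched by the MGAT enzymes, both kinds of chain are lengthened by galactosyl- and GlcNAc-transferases, and sialyl- and fucosyltransferases cap them. Sialyl-Tn, sialylated core 1 and the Lewis and H antigens, made by enzymes of these families, are carried by mucins of the stomach and by gastric cancers. RNA levels of an enzyme do not give its activity or the sugars on the cell.

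Values were intensities in arbitrary units that the authors had quantile-normalized, and 32.1% of all values were at or below 0, as after a subtracted background. Any intensity below 32.7, called the floor here, was raised to it before log2 was taken. A gene was tested, by limma, if 2 or more arrays exceeded the floor. "Called" means a Benjamini-Hochberg adjusted p of at most 0.05 over all 20147 genes tested. A difference is given on the log2 scale, and a difference against arrays at the floor is a lower bound. Arrays raised to the floor have no spread between them, so the SE and p-value of such a gene do not measure the full spread between its arrays. The epithelial markers EPCAM (from 9423 to 14168 over the 12 arrays), KRT8, KRT18, KRT19 and CDH1 were above the floor on every array. PROM1 read 9513 and 8847 in KATO-III CD133+ cells against 4056 and 4493 in CD133- cells, 9273 and 8773 against 2232 and 2219 in SNU-216, and 4877 and 4677 against 1315 and 1324 in SNU-601. Of the markers of leukocytes, stroma and endothelium reported here, PTPRC, CD3E, COL3A1, DES, PECAM1 and CDH5 were above the floor on no array, COL1A2 on 1 and COL1A1 on 7, with no more than 196. CD68, a lysosomal glycoprotein abundant in macrophages, lay above it on all 12 arrays and read lower in CD133+ than in CD133- cells of each line, with population means of 36 against 92.9 in KATO-III, 187 against 407 in SNU-216 and 1148 against 1576 in SNU-601. The part of these genes in any result below was not tested.

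Promoter sequence is shown for 4 members on which the results below turn: GCNT3 and GALNT11, which were bright on all arrays of 1 or 2 lines and at the floor on all arrays of the others, and FUT3 and FUT4, which moved in opposite directions between the fractions of SNU-216. The RefSeq promoter table, on GRCh38.p14, matched 66 of the 91 members. The stretches are the 250 bases before the start of the gene, 5′ to 3′ on the strand of the gene, at chr15:59611533-59611782 on the plus strand for GCNT3, chr7:152074787-152075036 on the plus strand for GALNT11, chr19:5851450-5851699 on the minus strand for FUT3 and chr11:94543671-94543920 on the plus strand for FUT4. Capitals mark matches, on either strand, to TATAAA (the TATA box), GGGCGG (the GC box bound by SP1), CCAAT or GTTAAT (a part of the site bound by HNF1 factors).
GCNT3: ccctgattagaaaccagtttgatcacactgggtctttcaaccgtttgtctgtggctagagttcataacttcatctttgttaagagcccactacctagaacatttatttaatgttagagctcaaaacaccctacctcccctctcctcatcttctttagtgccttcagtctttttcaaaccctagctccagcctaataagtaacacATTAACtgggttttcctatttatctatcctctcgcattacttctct
GALNT11: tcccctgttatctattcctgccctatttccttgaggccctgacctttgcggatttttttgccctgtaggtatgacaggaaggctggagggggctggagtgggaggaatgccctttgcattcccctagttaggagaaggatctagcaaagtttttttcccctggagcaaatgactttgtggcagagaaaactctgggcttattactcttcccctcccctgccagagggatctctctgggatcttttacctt
FUT3: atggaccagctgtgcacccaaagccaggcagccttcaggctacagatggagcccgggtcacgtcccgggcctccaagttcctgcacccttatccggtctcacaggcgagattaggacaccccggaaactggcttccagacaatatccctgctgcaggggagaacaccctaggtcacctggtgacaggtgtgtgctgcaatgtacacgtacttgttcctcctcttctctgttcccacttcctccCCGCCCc
FUT4: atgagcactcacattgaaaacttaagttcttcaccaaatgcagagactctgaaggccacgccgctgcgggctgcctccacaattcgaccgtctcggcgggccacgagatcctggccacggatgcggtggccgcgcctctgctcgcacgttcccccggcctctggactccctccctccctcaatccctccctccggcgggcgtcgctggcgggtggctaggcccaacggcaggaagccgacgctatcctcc
The stretch of GCNT3 held 2 CG dinucleotides and 1 match to GTTAAT, read as ATTAAC on the strand shown. That of GALNT11 held 1 CG and none of the 4 motifs. FUT3 had 8 CG and 1 match to GGGCGG, read as CCGCCC, while FUT4 had 23 CG and no match. Over all 66 members with a stretch, the median was 20.5 CG against 11 over all 35116 promoters of the table. GGGCGG occurred in 59.1% of the members' stretches and 42.6% of all, CCAAT in 31.8% and 32.0%, GTTAAT in 7.58% and 6.23%, and TATAAA in 3.03% and 10.7%. The matches describe letters in this window and were not tied to the binding of a factor.

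Of the 91 genes, 64 passed this filter and were tested, 31 of them on all 12 arrays and 33 on 2 to 11. Another 5, B4GALT6, GALNT9, ST8SIA2, ST8SIA3 and ST8SIA6, exceeded it on 1 array only. The remaining 22 did so on none: GALNT7, GALNT13, GALNT14, GALNT17, GALNTL1, GALNTL2, GALNTL5 and GALNTL6 of the initiating family, GCNT6 and GCNT7, B3GNT5, B3GNT7 and B3GNT9, MGAT4C and MGAT5, ST3GAL6, ST6GAL2, ST6GALNAC3, ST8SIA1, ST8SIA4 and ST8SIA5, and FUT5. No gene of the ST8SIA family, whose products add sialic acid to sialic acid, was therefore among the tested genes, although 6 were on the array. MGAT5, the enzyme of the branch that carries much polylactosamine, was also at the floor throughout. GCNT6 is an older symbol of GCNT2P1, named as a pseudogene, so its row may stand for no enzyme. A value at the floor gives an upper bound for this probe signal and does not show that the RNA was absent.

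**Figure D1:**
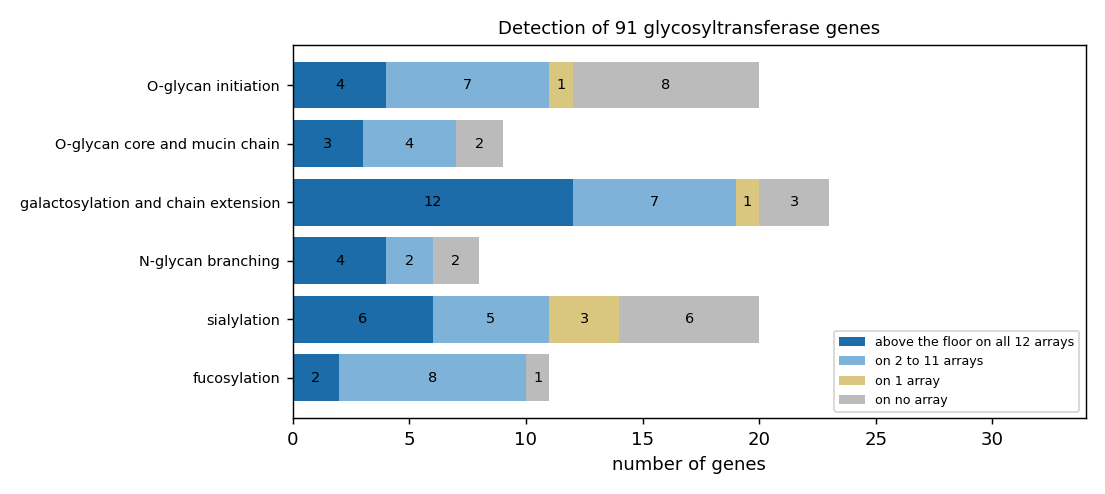
The bars count the 91 glycosyltransferase genes in 6 role groups (vertical axis) by the number of arrays on which they lay above the floor of 32.7 (horizontal axis, number of genes). Of the 20 genes that start O-glycans 8 were above it on no array, against 1 of the 11 fucosyltransferase genes.

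More members were called between the lines than between the fractions within a line, and the same held over all genes tested. The line tests used 4 arrays a line, and those of fractions within a line used 2 arrays a population. Between the 3 lines, 55 of the 64 tested members were called by limma's F-test, against 72.3% of all genes tested. SNU-216 against KATO-III gave 50 called members (23 higher and 27 lower in SNU-216, 62% of all genes called), SNU-601 against KATO-III gave 41 (26 higher and 15 lower, 58.6% of all genes), and SNU-601 against SNU-216 gave 54 (30 higher and 24 lower, 56.5% of all genes). A gene that passed the filter only through the line in which it was bright is more likely to differ, so the 31 members above the floor on all 12 arrays were also read against the 11674 genes of that kind. Of these 31, 26 were called between SNU-216 and KATO-III (72.7% of such genes), 24 between SNU-601 and KATO-III (71.3%) and all 31 between SNU-601 and SNU-216 (70.7%). The median difference of the tested members was -0.033 for SNU-216 minus KATO-III and 0.11 for SNU-601 minus KATO-III, where all genes had 0.030 and 0.015, so the members differed in both directions and not as a block. A pattern of presence recurred with SNU-216. Its 4 arrays were at the floor while all 8 arrays of the other lines were above it for 6 members, GALNT5, GCNT3, B3GALT4, MGAT3, ST6GAL1 and ST6GALNAC1, which is 6.59% of the members, and 1.3% of all genes showed that pattern. The same pattern with KATO-III at the floor held for A4GALT and GCNT2, 2.2% of the members, and for 0.59% of all genes. No member showed it with SNU-601 at the floor, and 0.546% of all genes did. GALNT11 was above the floor on all 4 SNU-216 arrays and no other (1.1% of the members and 1.07% of all genes). ST3GAL5 was above it on all 4 SNU-601 arrays and no other (1.1% and 0.413%).

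**Figure D2:**
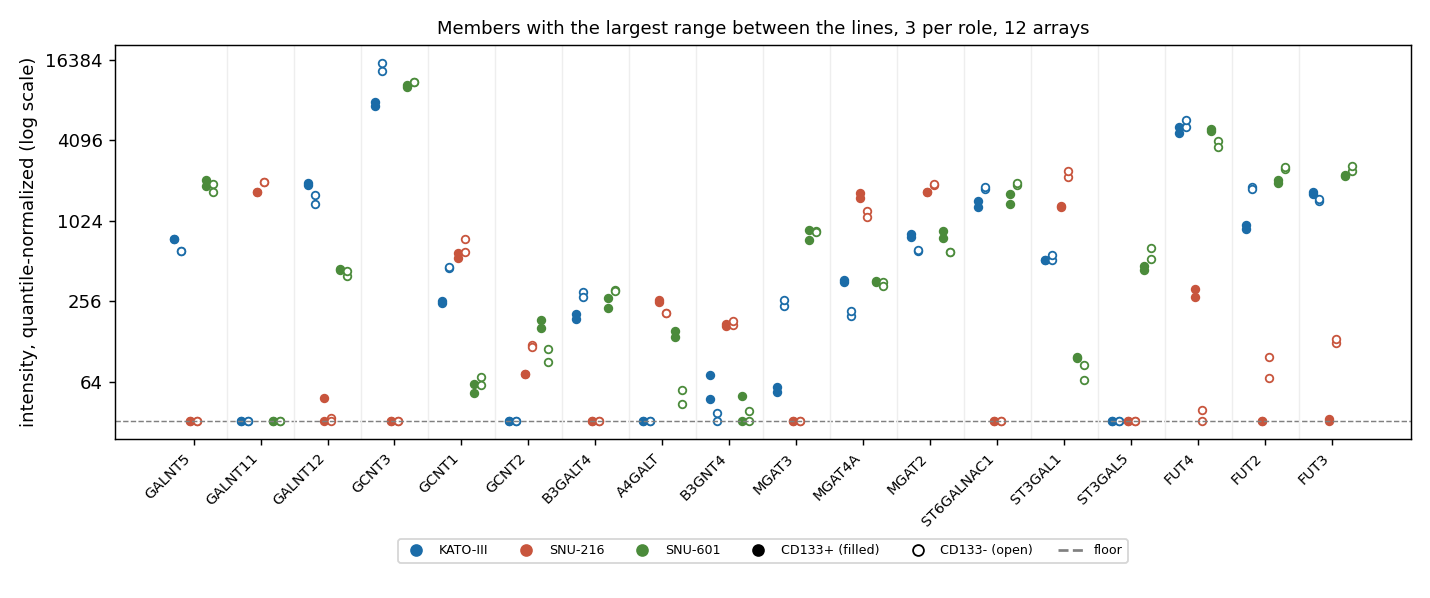
Each point is 1 array, and the vertical axis is the intensity on a log scale with values under the floor drawn at the floor (dashed line). The 18 genes are the 3 in each of 6 roles with the largest range of line means, and GCNT3 lay at the floor on all 4 SNU-216 arrays and between 7413 and 15550 in KATO-III.

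Between the fractions, the calls varied with the line. In KATO-III, 12 members were higher and 17 lower in CD133+ than in CD133- cells, where 18.7% and 20.6% of all genes were called higher and lower. In SNU-216, 10 were higher and 12 lower (14.6% and 14% of all genes). In SNU-601, 8 were higher and 4 lower (8.59% and 7.78% of all genes). Among the 31 members above the floor on all 12 arrays, 14 were called in KATO-III, 16 in SNU-216 and 8 in SNU-601, where 51.4%, 40.1% and 22.4% of such genes were. The median difference of the tested members was -0.04 in KATO-III, 0 in SNU-216 and 0.066 in SNU-601, and that of all genes was 0 in each line. For 35 members the difference itself differed between the lines by limma's interaction test, and 44.4% of all genes did. Of the 64 tested members, 21 were called in no line, 26 in 1 line, 14 in 2 lines and 3 in all 3 lines, where 43.8%, 33.1%, 18.1% and 4.97% of all genes tested were. A lower level in a sorted population can come from fewer cells that express a gene or from less RNA in each cell, and these cannot be told apart here.

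**Figure D3:**
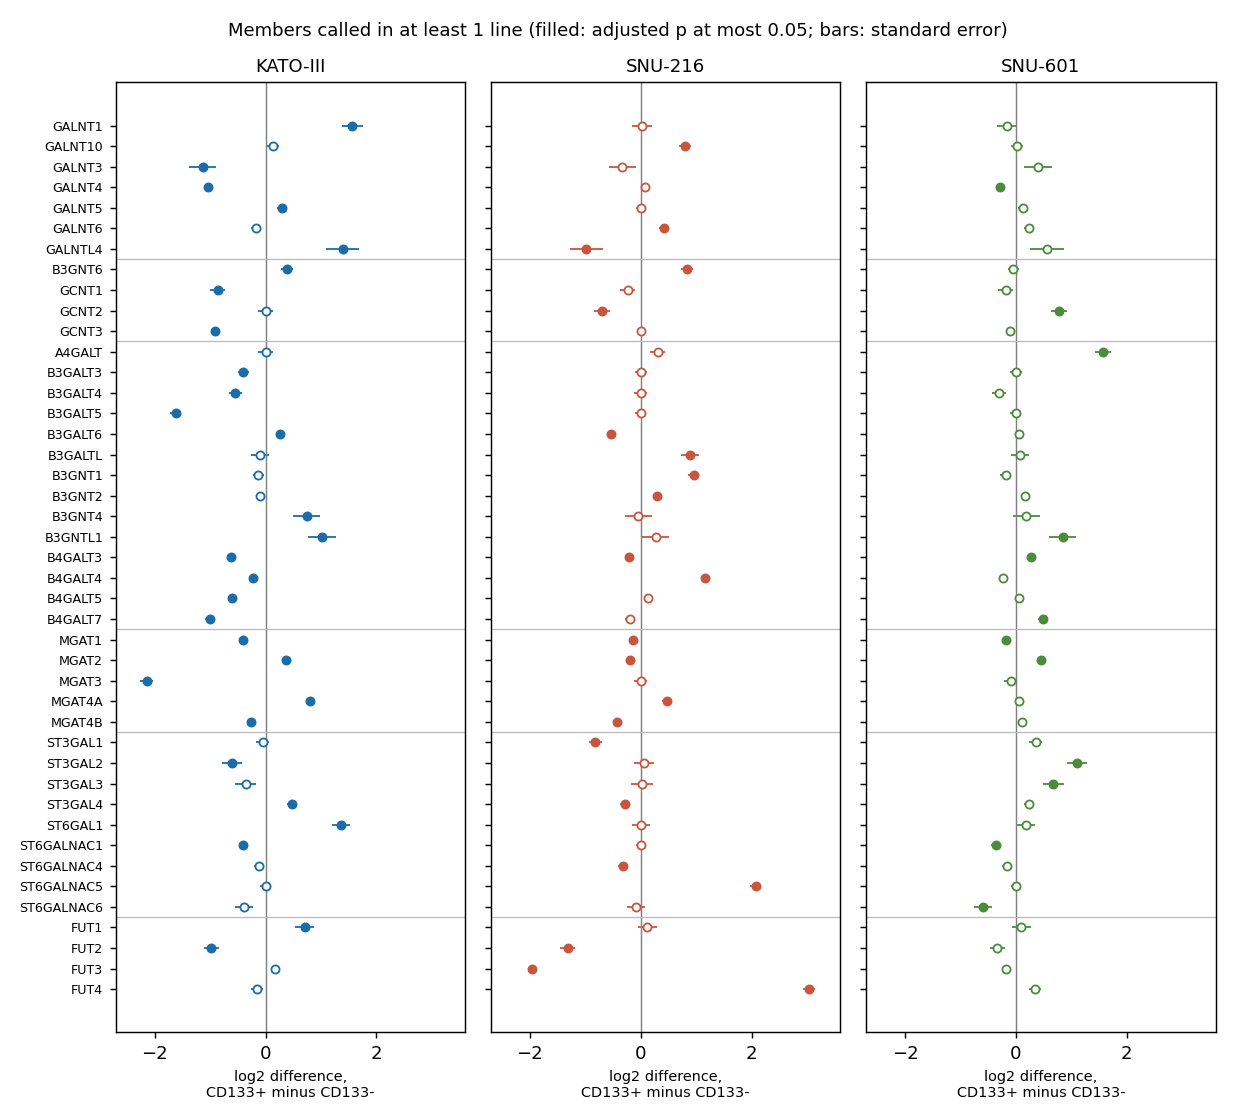
The horizontal axes give the log2 difference of CD133+ minus CD133- cells in each line for the members called in at least 1 line, grouped by role from the initiating enzymes at the top to the fucosyltransferases at the bottom. Points are fitted differences with their standard error, filled where called, and MGAT1 has filled points to the left of 0 in all 3 panels.

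Among the genes that start O-glycans, 20 GALNT symbols were listed and 11 were tested, of which 10 were called between the lines (72.3% of all genes tested). GALNT5 read 602 to 749 in KATO-III and 1670.3 to 2069 in SNU-601, and it was at the floor on all 4 SNU-216 arrays. It was at least 20.6-fold higher in KATO-III and at least 57.3-fold higher in SNU-601 than in SNU-216 (adjusted p = 1.72e-11 and 2.64e-12). GALNT11 had the reverse layout. It read 1687 to 1999 in SNU-216 and was at the floor on the 8 arrays of the other lines, at least 56.1-fold lower (adjusted p = 4.74e-12 against KATO-III). GALNT12 read 1372 to 1943 in KATO-III, 394 to 448 in SNU-601 and 19.9 to 48.7 in SNU-216, where 2 of 4 arrays were at the floor, and the 3 lines did not overlap. The remaining members called between SNU-216 and KATO-III went both ways: GALNTL4, GALNT2 and GALNT10 were higher in SNU-216 (differences of 3.67, 1.64 and 0.64), and GALNT1, GALNT6 and GALNT4 were lower (-2.44, -2.45 and -2.12). The members here and below that are given by their difference alone were named because they were called, after their values were seen.

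Within KATO-III the fractions parted for 5 initiating genes. GALNT1, a broadly expressed initiating enzyme, read 299 and 321 in CD133+ and 122 and 89.6 in CD133- cells, a difference of 1.57 (SE 0.18, adjusted p = 0.000171). The fractions did not overlap there, while in SNU-601 they did, with 331 and 380.4 in CD133+ and 343 and 455 in CD133- cells. GALNTL4, now named GALNT18, was also higher in KATO-III CD133+ cells, 96.5 and 86.9 against 37.4 and 29.3 (difference 1.39, SE 0.30, adjusted p = 0.00553). Without replicate 1 of the KATO-III CD133+ arrays the adjusted p was 0.0511. In SNU-216 the same gene went the other way, with 477 and 547 in CD133+ and 903 and 1129.9 in CD133- cells (difference -0.98, adjusted p = 0.0369), a call lost on leaving out each of 8 of the 12 arrays in turn, with an adjusted p up to 0.192. GALNT4, which adds GalNAc to peptides that already carry it, read 1124 and 1240.3 against 2327 and 2548 in KATO-III, a difference of -1.04 (SE 0.072, adjusted p = 1.03e-05). It was lower in SNU-601 CD133+ cells too, 1962 and 2084 against 2407 and 2507 (difference -0.28, adjusted p = 0.0302), and in SNU-216 the fractions overlapped. The call in SNU-601 was lost on leaving out any of the 4 arrays of that line, with an adjusted p up to 0.151, and under 2 of the other settings tried. GALNT3 was dim, with 30.1 and 22.6 in KATO-III CD133+ and 59.2 and 87.1 in CD133- cells, and both CD133+ arrays were under the floor (difference -1.14, adjusted p = 0.00604). GALNT5 differed in KATO-III by 0.30, and in SNU-216 GALNT10 and GALNT6 were higher in CD133+ cells by 0.80 and 0.42.

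In the group of O-glycan core and mucin chain enzymes, GCNT3, the mucin-type enzyme that branches O-glycans into core 2 and core 4, had the widest range between lines of all members. It read 7413 and 7847 in KATO-III CD133+ cells, 13343 and 15550 in KATO-III CD133- cells, 10497 and 10124 in SNU-601 CD133+ cells and 11076 and 11164 in SNU-601 CD133- cells. All 4 SNU-216 arrays were near 0, with 4.12 and -1.19 in CD133+ and -25.1 and -18.7 in CD133- cells, at least 321-fold below KATO-III and at least 328-fold below SNU-601. GCNT1, which makes core 2 without core 4, had another order. It read 246 to 462 in KATO-III, 540.4 to 743 in SNU-216 and 52.6 to 69.9 in SNU-601, so SNU-216 was highest and SNU-601 10.1-fold below it (difference -3.33, SE 0.097, adjusted p = 2.18e-09). GCNT2, which forms branches of the I antigen, was at the floor on all KATO-III arrays and read 73.1 to 121 in SNU-216 and 90.1 to 184 in SNU-601, ranges that overlapped.

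GCNT3 and GCNT1 were both lower in KATO-III CD133+ than in CD133- cells. The difference of GCNT3 was -0.92 (SE 0.068, adjusted p = 1.41e-05), with no overlap between the fractions. GCNT1 read 256 and 246 against 452 and 462, a difference of -0.87 (SE 0.14, adjusted p = 0.00104). Neither was called in another line. B3GNT6, the core 3 synthase of digestive epithelium, rose in CD133+ cells of KATO-III, 1398 and 1651 against 1243 and 1088 (difference 0.39, adjusted p = 0.0165), and of SNU-216, 613 and 626 against 378 and 319.9 (difference 0.83, adjusted p = 0.00045). In SNU-601 it read 1109 and 1095 and 1112 and 1160.3, and the difference was -0.044 (adjusted p = 0.913). GCNT2 was lower in SNU-216 CD133+ cells, 73.2 and 73.1 against 121 and 116, and higher in SNU-601 CD133+ cells, 161 and 184 against 90.1 and 112, with differences of -0.70 and 0.78 (adjusted p = 0.00512 and 0.00609). The interaction test was past the threshold for each of GCNT1, GCNT2, GCNT3 and B3GNT6. B3GNT3, which extends core 1, read 176 to 228 in KATO-III, 142 to 221 in SNU-216 and 200.4 to 331 in SNU-601 and was called in no line. A4GNT, which caps the O-glycans of gastric gland mucin, was above the floor on 7 of 12 arrays with no value over 66.8, and it was called in no comparison.

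C1GALT1, the core 1 synthase, and its chaperone C1GALT1C1 (COSMC) lie outside the families and were taken along as the step between GALNT enzymes and GCNT1. C1GALT1 read 393 and 413 in KATO-III CD133+ cells and 124 and 162 in CD133- cells, higher by 1.51 (SE 0.22, adjusted p = 0.000636). In SNU-216 its fractions overlapped, at 200.4 and 137 against 165 and 192, and in SNU-601 it read 185 and 136 against 117 and 129.6 and was not called (adjusted p = 0.334). C1GALT1C1 rose in CD133+ cells of KATO-III by 0.25 (adjusted p = 0.0253) and of SNU-216 by 0.54 (adjusted p = 0.000731), and its difference in SNU-601 was -0.17 (adjusted p = 0.176).

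All 11 tested sialyltransferase genes of 20 listed were called between the lines, as were 72.3% of all genes tested, and several passed the filter only through the lines in which they were bright. ST6GALNAC1, the sialyl-Tn synthase, read 1433 and 1290.1 in KATO-III CD133+ cells, 1758 and 1826 in KATO-III CD133- cells, 1367 and 1618 in SNU-601 CD133+ cells and 1879 and 1955 in SNU-601 CD133- cells. Every SNU-216 array was below 0, from -21.8 to -12, at least 47.7-fold below KATO-III (adjusted p = 3.72e-12). ST3GAL1, which caps core 1 and so competes with core 2 branching, had another order. It read 1296 to 2399 in SNU-216, 520.2 to 564 in KATO-III and 66.1 to 97.1 in SNU-601, with no overlap, and SNU-601 was 20.3-fold below SNU-216 (difference -4.34, SE 0.08, adjusted p = 9.47e-11). ST3GAL5, the synthase of the ganglioside GM3, read 441 to 639 in SNU-601 and was at the floor on all 8 other arrays, at least 15.7-fold lower than SNU-601 in KATO-III (adjusted p = 7.62e-10). ST6GAL1, which caps N-glycans, was at the floor in SNU-216 and read 48.4 to 152 in KATO-III and 287 to 341 in SNU-601. ST3GAL2 was highest in SNU-601, from 211 to 555, and ST3GAL4 in KATO-III, from 2304 to 3338.

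Between the fractions, ST6GALNAC1 was lower in CD133+ cells of KATO-III (difference -0.40, SE 0.089, adjusted p = 0.00693) and of SNU-601 (difference -0.37, SE 0.089, adjusted p = 0.0245), and the fractions did not overlap in either line. The call in SNU-601 was lost without replicate 1 of its CD133+ or either of its CD133- arrays, with an adjusted p up to 0.125. ST6GAL1 rose in KATO-III CD133+ cells, 152 and 144 against 48.4 and 68.3 (difference 1.36, SE 0.16, adjusted p = 0.000192), and in SNU-601 its difference was 0.19 (adjusted p = 0.529). In SNU-216, ST3GAL1 read 1305 and 1296 in CD133+ and 2186 and 2399 in CD133- cells, a difference of -0.82 (SE 0.11, adjusted p = 0.000811). It differed in KATO-III by -0.051 (adjusted p = 0.819) and in SNU-601 by 0.36 (adjusted p = 0.0662). ST6GALNAC5, a sialyltransferase of brain gangliosides, was above the floor on 2 arrays of the 12, both of SNU-216 CD133+ cells, at 141 and 134 against 19.5 and 29.4 in CD133- cells, at least 4.2-fold higher (adjusted p = 3.19e-06). It passed the filter only through the 2 arrays on which it was bright, so this p-value is no separate evidence of the difference. ST3GAL2, which sialylates O-glycans and gangliosides, was lower in KATO-III CD133+ cells, 183 and 148 against 279 and 225, and higher in SNU-601 CD133+ cells, 555 and 479 against 211 and 274. Its differences were -0.61 and 1.10 (adjusted p = 0.0248 and 0.00413). ST6GALNAC6 read 251 and 295 in SNU-601 CD133+ and 403 and 420 in CD133- cells, a difference of -0.60 (SE 0.16, adjusted p = 0.0365). That call was lost on leaving out each of 8 of the 12 arrays in turn, with an adjusted p up to 0.188. It was also lost under 3 of the other settings tried. The other calls were ST3GAL4 in KATO-III (0.47) and SNU-216 (-0.28), ST6GALNAC4 in SNU-216 (-0.31) and ST3GAL3 in SNU-601 (0.68).

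**Figure D4:**
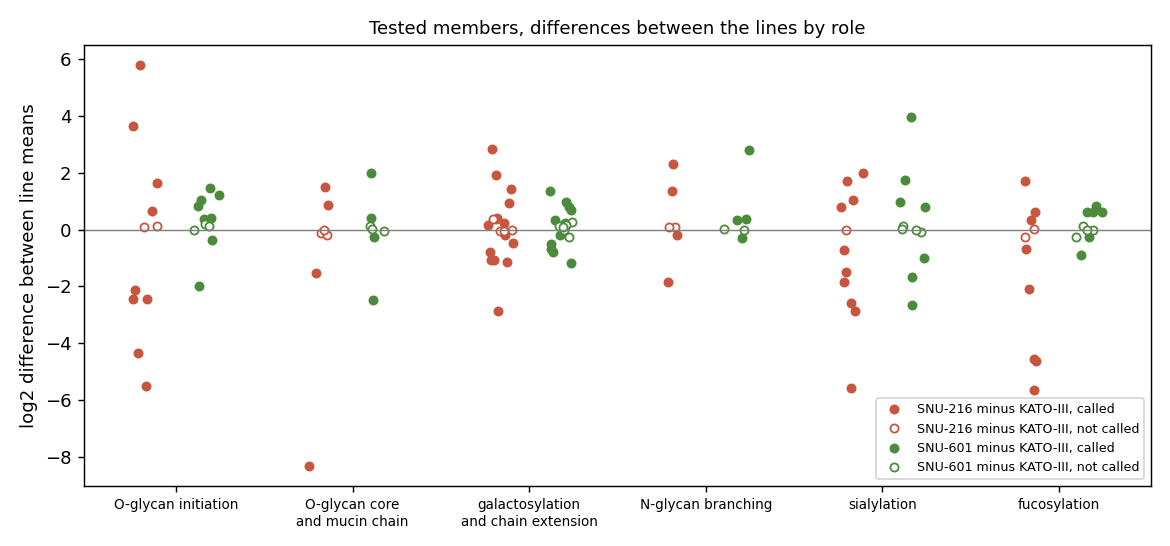
Points are the 64 tested members in 6 roles (horizontal axis), each with its log2 difference of SNU-216 minus KATO-III and of SNU-601 minus KATO-III (vertical axis), filled where called. GCNT3 at -8.32 is the lowest point and GALNT11 at 5.81 the highest, both in SNU-216 minus KATO-III.

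Of 11 fucosyltransferase genes 10 were tested, and 8 were called between the lines (72.3% of all genes tested), with 5 of the 8 called between SNU-216 and KATO-III lower in SNU-216. FUT4, which makes the Lewis x antigen, read 4661 to 5820 in KATO-III and 3660 to 4947 in SNU-601. In SNU-216 it read 277 and 314 in CD133+ cells and 26.4 and 39.3 in CD133- cells. SNU-216 lay 50.2-fold below KATO-III as a mean of its fractions (adjusted p = 1.05e-11), and inside SNU-216 the CD133+ cells were 8.23-fold above the CD133- cells, of which 1 array was at the floor (difference 3.04, SE 0.11, adjusted p = 6.91e-07). This was the largest fitted difference between fractions of any member in any line. FUT3, the Lewis enzyme, moved the other way in the same cells, with 33.5 and 16.4 in SNU-216 CD133+ and 124 and 133 in CD133- cells (difference -1.95, SE 0.061, adjusted p = 3.36e-07). The value of 16.4 was raised to the floor, so this difference is a lower bound in size and its SE leaves out part of the spread. In the other lines FUT3 read 1446 to 1675 in KATO-III and 2219 to 2610.4 in SNU-601, and its fractions there differed by 0.17 and -0.18, which were not called (adjusted p = 0.0547 and 0.0877). FUT4 too was not called in KATO-III or SNU-601 (adjusted p = 0.29 and 0.0598), and for both genes the interaction of line and fraction was past the threshold (adjusted p = 2.34e-06 for FUT3 and 4.77e-06 for FUT4).

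FUT2, the secretor enzyme that makes the H antigen of mucins, read lower on the CD133+ than on the CD133- arrays of each line. It read 884 and 948 in KATO-III CD133+ and 1831 and 1775 in CD133- cells, 23.1 and 22.4 against 68.2 and 97.6 in SNU-216, and 1959 and 2073 against 2480.3 and 2592 in SNU-601. The fractions did not overlap in any line. The differences were -0.98 (SE 0.14, adjusted p = 0.000537), -1.32 (adjusted p = 0.000186, a lower bound in size) and -0.33 (adjusted p = 0.153), so the third was not called. FUT1, the H enzyme of red cells, differed from FUT2 in direction in KATO-III. It read 171 and 202 in CD133+ and 108 and 120 in CD133- cells, higher by 0.70 (SE 0.17, adjusted p = 0.0107), and was called in no other line. FUT5 was at the floor throughout and FUT6 was dim, from 49.8 to 64.3 in KATO-III, 17.8 to 43.3 in SNU-216 and 59.8 to 65.1 in SNU-601. FUT3, FUT5 and FUT6 are close relatives in sequence, and whether a probe of one also bound RNA of another could not be checked without the probe sequences. FUT8, which adds the core fucose of N-glycans, was highest in SNU-216, from 295 to 528 against 65.1 to 164 in KATO-III (difference 1.73, SE 0.20, adjusted p = 4.83e-05), and was not called between fractions in any line. FUT10 and FUT11, now listed as POFUT3 and POFUT4, were called between no fractions, nor were FUT7 and FUT9.

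**Figure D5:**
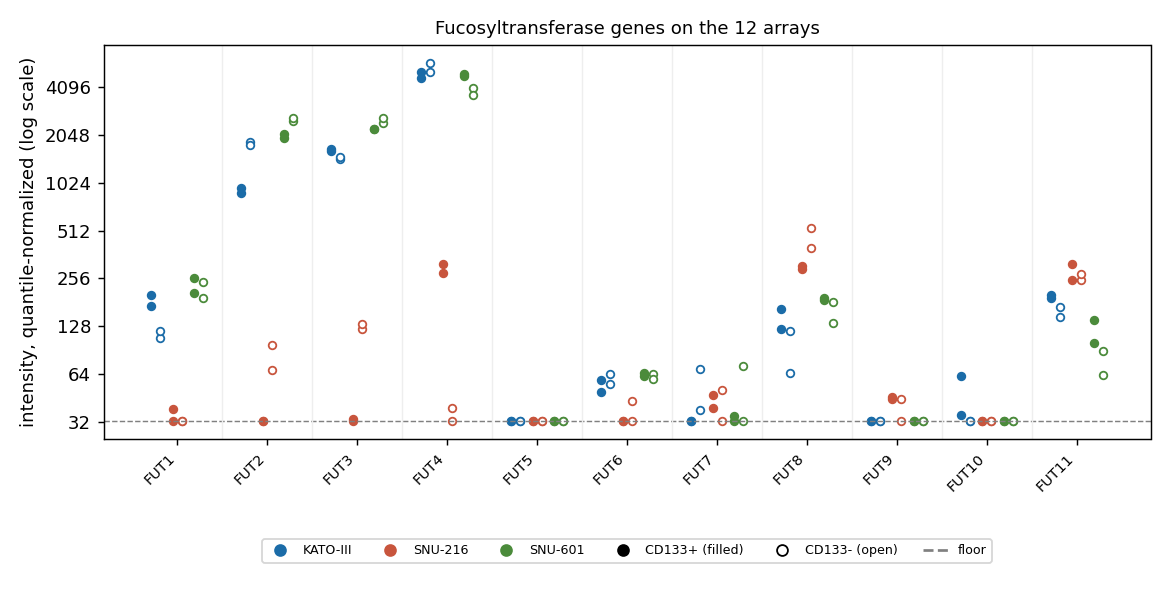
Each point is 1 array for the 11 fucosyltransferase genes (horizontal axis), on a log intensity axis with values under the floor drawn at the floor. In SNU-216 the filled CD133+ points of FUT4 lie above the open CD133- points, and those of FUT2 and FUT3 lie below them.

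Among the genes of N-glycan branching, MGAT1, which adds the first GlcNAc and so opens the path to hybrid and complex N-glycans, was lower in CD133+ cells of all 3 lines. It read 2048 and 1997 against 2714 and 2655 in KATO-III, 1871 and 1978 against 2064 and 2178 in SNU-216, and 1790.1 and 1782 against 2048 and 2000.2 in SNU-601. No pair of fractions overlapped, and the differences were small, -0.41, -0.14 and -0.18 (SE 0.045 each, adjusted p = 0.00013, 0.0471 and 0.0271). The calls in SNU-216 and SNU-601 were lost on leaving out each of 8 and of 4 of the 12 arrays in turn, with an adjusted p up to 0.204 and 0.112. The call in SNU-216 was also lost under 7 of the other settings tried, and that in SNU-601 under 3. MGAT2, which starts the second branch, rose in CD133+ cells of KATO-III, 808 and 770.1 against 607 and 615, and of SNU-601, 759.8 and 863 against 596 and 594. In SNU-216 it fell, from 1900.4 and 1934 in CD133- to 1686 and 1669 in CD133+ cells, and the differences were 0.37, 0.44 and -0.19 (adjusted p = 0.00147, 0.00205 and 0.0471). The call in SNU-216 was lost on leaving out each of 10 arrays in turn, with an adjusted p up to 0.157, and under 8 of the other settings tried.

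MGAT3, which adds the bisecting GlcNAc, had the largest fitted fall in KATO-III of any member, where falls to the floor, such as that of B3GALT5, are known only as lower bounds. It read 53.5 and 57.9 in CD133+ and 234 and 259 in CD133- cells, a difference of -2.14 (SE 0.12, adjusted p = 2.99e-06). SNU-601 was high in both fractions, 868 and 731 and 854 and 843, with a difference of -0.091 (adjusted p = 0.729), and SNU-216 was at the floor, at least 25.1-fold below SNU-601 (adjusted p = 8.07e-11). MGAT4A, a branching enzyme, read 369 and 356 against 199 and 217 in KATO-III and 1518 and 1658 against 1209 and 1092 in SNU-216, higher in CD133+ cells by 0.80 and 0.47 (adjusted p = 7.83e-05 and 0.00264). In SNU-601 it read 364 and 358 against 359 and 332, and these overlapped. Its level was highest in SNU-216, 4.92-fold above KATO-III (adjusted p = 7.13e-10), and MGAT2 was 2.58-fold higher in SNU-216 than in KATO-III (adjusted p = 4.3e-09). MGAT4B, its relative, was lower in CD133+ cells of KATO-III (-0.26) and SNU-216 (-0.42).

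Of 23 genes of galactosylation and chain extension, 19 were tested and 16 were called between the lines (72.3% of all genes tested). A4GALT, which makes the glycolipid Gb3, was below 0 on every KATO-III array and read 207 to 261 in SNU-216, at least 7.09-fold higher (adjusted p = 8.61e-09). In SNU-601 it read 153 and 137 in CD133+ and 43.2 and 55.3 in CD133- cells, higher by 1.57 (SE 0.14, adjusted p = 0.000346), the largest fitted rise in that line. In SNU-216 its difference was 0.30 (adjusted p = 0.155). B3GALT4, a galactosyltransferase of gangliosides, was at the floor in SNU-216 and read 188 to 298 in KATO-III and 229 to 309 in SNU-601. B3GNT4 read 168 to 181 in SNU-216, 12.3 to 71.9 in KATO-III and 17.3 to 50.3 in SNU-601, so SNU-216 did not overlap the other lines (difference of 1.93 against KATO-III, adjusted p = 7.25e-06). B3GALT5, which makes the type 1 chains that carry Lewis a, was above the floor on 2 arrays only, the KATO-III CD133- arrays at 95.1 and 106 against -20.9 and -22.5 in CD133+ cells, at least 3.07-fold lower in the latter (adjusted p = 5.38e-06). Only through these 2 bright arrays did B3GALT5 pass the filter, so its p-value is no separate evidence of the difference.

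The B4GALT genes moved in different directions. B4GALT4 read 1168 and 1158 in SNU-216 CD133+ and 531 and 512 in CD133- cells, higher by 1.16 (SE 0.07, adjusted p = 1.08e-05). It was lower in KATO-III CD133+ cells (difference -0.23, adjusted p = 0.0272), and its difference in SNU-601 was -0.23 (adjusted p = 0.0529). B4GALT3 was called in all 3 lines, with 1445 and 1406 against 2225 and 2174 in KATO-III, 3117 and 3142 against 3736 and 3501 in SNU-216, and 2517 and 2343 against 1909 and 2119 in SNU-601. It was lower in CD133+ cells of KATO-III and SNU-216 and higher in those of SNU-601, with differences of -0.63, -0.21 and 0.27 (adjusted p = 6.24e-05, 0.0306 and 0.0166). The call in SNU-216 was lost without either CD133+ array or replicate 1 of the CD133- arrays of that line (adjusted p up to 0.165) and under 2 of the other settings tried, and that in SNU-601 without replicate 1 of either fraction (up to 0.0986). B4GALT7, an enzyme of the proteoglycan linker, was lower in KATO-III CD133+ cells (1312 and 1638 against 2848 and 3019.6) and higher in those of SNU-601 (0.49), and B4GALT5 was lower in KATO-III (-0.61). B3GNT1 read 924 and 905 in SNU-216 CD133+ and 486 and 459 in CD133- cells, higher by 0.95 (SE 0.10, adjusted p = 0.000198), and the symbol is an older name of both B3GNT2 and B4GAT1, so its enzyme is not settled. The other calls were B3GALT3, B3GALT4, B3GALT6 and B3GNT4 in KATO-III (-0.40, -0.55, 0.27 and 0.74) and B3GALTL, B3GNT2 and B3GALT6 in SNU-216 (0.88, 0.30 and -0.53). Of these, B3GALT3 passed the filter only through the 2 KATO-III CD133- arrays. The row B3GALTL carries an older name of B3GLCT, and its place in this group rests on that older symbol. B3GALT3 is an older name of B3GALNT1, which has a row of its own with other values, 1081 and 1107 in KATO-III CD133+ cells where the row B3GALT3 read 29.3 and 31.4, so the rows of that gene did not give the same level.

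B3GNTL1 had a higher mean in CD133+ than in CD133- cells of each line. It read 187 and 171 in KATO-III CD133+ and 108 and 72.2 in CD133- cells, 111 and 87.2 against 100.4 and 66.5 in SNU-216, and 167 and 165 against 85.5 and 99.8 in SNU-601. The fractions did not overlap in KATO-III and SNU-601, with differences of 1.02 and 0.84 (adjusted p = 0.01 and 0.0491), and they overlapped in SNU-216 (difference 0.27, adjusted p = 0.51). The call in KATO-III was lost without replicate 1 of its CD133+ or replicate 2 of its CD133- arrays (adjusted p up to 0.0781), and that in SNU-601 on leaving out each of 8 of the 12 arrays in turn (up to 0.205) and under 3 of the other settings tried. RefSeq now lists the gene as QTGAL, a galactosyltransferase of transfer RNA, so the symbol placed among the Golgi families a gene whose product is not known as a Golgi enzyme.

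Over all lines, in a fit with cell line as a block and 6 arrays a fraction, 4 members were called. B3GNTL1 and MGAT4A were higher in CD133+ cells, by 0.71 (SE 0.17, adjusted p = 0.0403) and 0.44 (SE 0.11, adjusted p = 0.0498), where 2.62% of all genes were called higher. FUT2 and MGAT1 were lower, with differences of -0.88 (SE 0.15, adjusted p = 0.0155) and -0.24 (SE 0.058, adjusted p = 0.0397), where 2.11% were called lower. In each line these 4 had the sign of the fit over all lines. This fit treats both arrays of a population as if they were independent. With the arrays of a population averaged first, 0 members were called and 2 had an unadjusted p under 0.05, and with population as a random block 0 were called and 13 had one, so no call over all lines remained in either. On leaving out each of the 12 arrays in turn, FUT2 was called every time, B3GNTL1 and MGAT4A on 2 occasions and MGAT1 on 1, with adjusted p up to 0.104 for B3GNTL1, 0.12 for MGAT4A and 0.0981 for MGAT1. The signal-to-noise ratio of the study, the difference of the means of 6 and 6 arrays over the sum of their SDs on linear intensities, was above 1 for 1 member, B3GNTL1 at 1.06, and below -1 for none, where 193 and 139 of all genes passed. KATO-III and SNU-216 had 11 members called in both, of which 6 had the same direction (66% of all genes called in both), KATO-III and SNU-601 had 8 with 5 the same (58%), and SNU-216 and SNU-601 had 4 with 1 the same (29.4%).

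Other genes of the pathway were taken from lists of donor-sugar supply, other glycosyltransferases, mannosidases, sialidases and fucosidases, and sulfotransferases, 64 in all with 52 tested. Among them is B3GALNT1, the gene that the member row B3GALT3 names by an older symbol. Called higher and lower in CD133+ cells were 11 and 18 in KATO-III (18.7% and 20.6% of all genes), 11 and 8 in SNU-216 (14.6% and 14%) and 4 and 3 in SNU-601 (8.59% and 7.78%), and 48 were called between the lines (72.3%). Of the 5 tested genes of GDP-fucose supply, 0 were called higher and 4 called lower in KATO-III, 0 and 3 in SNU-216, and 1 and 0 in SNU-601, beside the same shares of all genes. SLC35C1, the Golgi transporter of GDP-fucose, was the only one of the 52 called over all lines, where 2.62% of all genes were called higher and 2.11% lower. It read 2222 and 2328 in KATO-III CD133+ and 3428 and 3565 in CD133- cells, 424 and 446 against 535 and 528 in SNU-216, and 1388 and 1289 against 1466 and 1846 in SNU-601. The fractions did not overlap in any line. The differences in KATO-III, SNU-216 and SNU-601 were -0.62, -0.29 and -0.30 (adjusted p = 0.000878, 0.0514 and 0.0674), so SLC35C1 was called within KATO-III only. Its difference over all lines was -0.40 (SE 0.081, adjusted p = 0.0241). With the arrays of a population averaged, 0 genes of the whole table were called over all lines. Of the 5 tested genes of sialic acid supply, 1 was called higher in KATO-III and 2 in SNU-216, and none was called lower in either. SLC35A1, the Golgi transporter of CMP-sialic acid, rose in SNU-216 CD133+ cells by 0.75 (SE 0.046, adjusted p = 1.09e-05), and its differences in KATO-III and SNU-601 were -0.024 and -0.093 (adjusted p = 0.772 and 0.23). SLC35C1 and SLC35A1 were named after their values were seen.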

How the data were processed

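The 12 arrays were grouped by the labels into CD133+ and CD133- cells of KATO-III, SNU-216 and SNU-601, with 2 arrays in each population. Illumina HT-12 v3 arrays were quantile-normalized by the authors, whose processing notes name BeadStudio, and they deposited linear intensities with a row per gene symbol. Whether and how background was subtracted and how probes of a gene were combined are not given in the sources used here, and the deposited values, from -56.4 to 23393.5 with 32.1% at or below 0, are those of a subtracted background. The number of arrays limits the precision. Log2 values had been planned for, so a floor of 32.7, the absolute value of the 1st percentile over the whole table, replaced any lower intensity before log2 was taken.

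Genes for which 2 or more arrays exceeded the floor went into limma 3.58.1, run in R 4.3.3 with a mean-variance trend and Benjamini-Hochberg adjustment. A model with 6 population means (6 residual degrees of freedom) gave the differences within lines, between lines and their interaction, and a model with line as a block (8 residual degrees of freedom) gave the fractions over all lines. Signal-to-noise ratios were computed in R as well. Promoter motifs and figures were made in Python 3.11.15 with numpy 2.4.6, pandas 2.3.3 and matplotlib 3.10.9. Scripts were tested on simulated data.

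The members, gene lists and tests were chosen with earlier results of these data known. Named were members called over all lines with the same sign in each, the 4 largest differences in each direction within each line, members called in all 3 lines, the 3 largest ranges of line means in each of 6 roles, 14 mucin-type and fucosyl enzymes whatever their values, and C1GALT1 with C1GALT1C1. Of the 91 symbols 81 are current, 9 are older names of 1 gene and 1 of several genes. Alternatives changed the floor, scaling, filter, trend, replicate block, treatment of the arrays of a population and scale of the ratio, or left out each array. One marker gene is not reported here.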

Additional observations from a re-analysis of the deposited data

Results flagged for a closer look

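The difference between CD133+ and CD133- cells itself differed between the 3 lines, by limma's interaction test with Benjamini-Hochberg adjustment over all genes tested, for 35 members and for C1GALT1 and C1GALT1C1, each given with the adjusted p of that test. At this threshold 44.4% of all genes were called, so the count alone sets nothing apart about these families. Some were called in opposite directions in different lines: GALNTL4 (0.00461), GCNT2 (0.001), ST3GAL2 (0.00178), MGAT2 (0.000776), B4GALT3 (0.000175), B4GALT4 (1.96e-05), B3GALT6 (0.000471), B4GALT7 (9.78e-05) and ST3GAL4 (0.00306). Others were called in KATO-III alone: GALNT1 (0.00116), GALNT3 (0.0182), GCNT1 (0.0303), GCNT3 (0.000179), MGAT3 (3.48e-05), ST6GAL1 (0.00236), B3GALT5 (5.28e-05), B4GALT5 (0.000318) and C1GALT1 (0.00664). In SNU-216 alone the called genes were FUT3 (2.34e-06), FUT4 (4.77e-06), ST3GAL1 (0.00111), ST6GALNAC5 (1.37e-05), B3GNT1 (0.000406), B3GALTL (0.014), B3GNT2 (0.0238), GALNT10 (0.00535) and GALNT6 (0.00918). A4GALT (0.000605) and ST3GAL3 (0.0315) were called in SNU-601 alone. Another group was called in the same direction in 2 or 3 lines: MGAT1 (0.0154), MGAT4A (0.00237), MGAT4B (0.00393), GALNT4 (0.000128), ST6GALNAC1 (0.0496), FUT2 (0.0081), B3GNT6 (0.00357) and C1GALT1C1 (0.00175). For genes at the floor throughout a line, such as MGAT3, GCNT3, ST6GAL1 and ST6GALNAC1 in SNU-216, a difference of 0 there is a limit of the measurement. A change under the floor would not be seen. ST6GALNAC1 differed by -0.40 in KATO-III and -0.37 in SNU-601, so its interaction rests on the arrays at the floor in SNU-216. B3GALT5 and ST6GALNAC5 were above the floor in 1 population only, so their interaction restates that difference between fractions. FUT4 had the widest split of these genes, with a difference of 3.04 in SNU-216 against -0.16 in KATO-III and 0.35 in SNU-601.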

How the results depend on the processing

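Values in this part are counts of members called, and the arrays are few. On leaving out single arrays, each of the 12 once, counts over all lines ranged from 0 to 1 higher and 1 to 2 lower, against 2 and 2 with all arrays. They were 8 to 12 higher and 13 to 17 lower in KATO-III, 9 to 11 and 7 to 10 in SNU-216, and 4 to 9 and 0 to 5 in SNU-601. For the interaction they were 30 to 36 and between the 3 lines 55 to 56. A floor of 16 gave 5 higher in SNU-601 and 0 higher over all lines, and a floor of 100 gave 8 lower in SNU-601 and 1 lower over all lines. An offset of 100 in place of the floor gave 1 lower over all lines, a second quantile normalization 1 higher over all lines. No filter gave 1 lower in SNU-601 and 0 higher over all lines, and no trend gave 2 lower in SNU-601 and 1 higher and 1 lower over all lines. With only genes above the floor on all 12 arrays, 31 members were left. They gave 7 higher and 9 lower in KATO-III, 6 lower in SNU-216, 1 lower over all lines, 22 for the interaction, 31 between the lines, 26 for SNU-216 minus KATO-III, 24 for SNU-601 minus KATO-III and 30 for SNU-601 minus SNU-216. Fewer members were tested there, so these counts do not have the same base as those of all tested members. With a fold of at least 1.5 asked for as well, chosen after seeing the data, 7 were higher and 11 lower in KATO-III, 5 lower in SNU-216, 5 higher and 1 lower in SNU-601, 1 higher and 1 lower over all lines, and 27 called for SNU-601 minus KATO-III. Averaging the arrays of a population, or a random block for population, gave 0 higher and 0 lower over all lines. The signal-to-noise ratio on log2 intensities was above 1 for 0 members, and the ratio within each line, averaged, was above 1 for 22 and below -1 for 21, where 5466 and 6093 of all genes passed. The cause of these shifts was not tested.

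With the replicate number as a replicate block, 0 members were called higher and 1 lower over all lines, 11 and 17 in KATO-III, 10 and 9 in SNU-216, 8 and 3 in SNU-601, and 35 for the interaction. Deviations of arrays with the same number correlated at 0.0261 in KATO-III, 0.0129 in SNU-216 and -0.00648 in SNU-601. These values show no marked deviation shared by same-numbered arrays. They cannot show whether such arrays came from the same sort. No difference of a named gene that was followed through the alternatives changed its direction. Results other than counts were 58, made up of differences of named genes and medians over the members. Of these, 16, all differences of named genes, lost their call under at least 1 alternative that kept all arrays. Most often lost were MGAT2 in SNU-216 (8 settings), MGAT1 in SNU-216 (7) and MGAT4A over all lines (7). Other differences between fractions given above, such as those of GCNT3, GCNT1 and B3GNT6 in KATO-III, were not among the 58.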
